A study of Mus musculus with 10 samples.

Results

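Developmental homeobox, paired box and T-box genes outside the Hox clusters were examined in mouse embryonic stem cells (mESCs) that lack DAXX or histone H3.3. Members were the genes whose symbol was Pax, Lhx, Nkx, Dlx, Msx, Irx or Tbx with a family number, or belonged to the sine oculis homeobox family, which gave 64 genes of the 20325 in the table: 9 Pax, 8 Lhx, 13 Nkx, 6 Dlx, 3 Msx, 6 Irx and 13 Tbx genes beside the sine oculis homeobox genes. DAXX is a chaperone that carries the histone variant H3.3. The study asked which genes respond when DAXX or H3.3 is put back into cells without it, and whether an H3.3 that is not stably built into nucleosomes acts like normal H3.3.

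Poly(A) RNA was sequenced from 5 cell lines with 2 libraries each, 10 in all. The first pair of lines came from Daxx-/- mESCs of strain 129/SvEv, called Daxx KO, and the same cells carrying a wild-type mouse DAXX transgene, called Daxx KO;DAXX. The other 3 lines came from H3.3 knockout mESCs of a mixed 129 and C57BL/6J background: untransduced cells (H3.3 KO), cells with a wild-type H3.3 transgene (H3.3 KO;WT) and cells with the deposition mutant of H3.3 (H3.3 KO;mutant), which the labels call L126A-L130A. Transgenes were tagged, delivered by lentivirus and kept under puromycin selection. All lines grew without feeders in LIF with 3 µM CHIR99021 and 1 µM PD0325901, inhibitors of GSK3 and MEK. The rescued lines of a family derive from its knockout line. The paper calls the duplicates of a line biological replicates, and neither it nor the labels say whether they were separate cultures. The p-values measure the spread between these libraries, which may be technical.

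Library totals ran from 15463625 to 21396585 expected counts. Levels are given as CPM (the count scaled to a library total of 1000000), where 1 count is worth 0.0467 to 0.0647 CPM and a reading of 0 allows up to 3 counts, or 0.14 to 0.194 CPM. These limits cover counting error only, because PCR copies were not marked. Differences were tested with edgeR's quasi-likelihood test across 13201 genes, those that reached 1 CPM in 2 or more libraries. A call needed both a 2-fold difference and p below 0.05 after Benjamini-Hochberg adjustment. Levels of different genes are compared only as CPM per kb of mean transcript length.

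Homeobox and T-box proteins bind DNA through conserved domains and set the identity of body segments, neural domains, limbs, heart and glands in the embryo. In pluripotent cells many of their genes lie in CpG-rich chromatin held silent by Polycomb complexes, and their low transcripts are often read as a sign of differentiation. Tbx3 is the known exception, since it is expressed in the inner cell mass and belongs to the naive pluripotency network.

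Genotypes were first checked in the targeted genes. H3f3a, which encodes H3.3, read 390 to 498 CPM in the 4 Daxx-line libraries and 2.94 to 11.4 CPM in the 6 H3.3-line libraries, a log2 difference of -6.52 ± 0.24 (SE; edgeR adjusted p = 1.7e-06). H3f3b, which also encodes H3.3, still read 525 and 749 CPM in H3.3 KO, and whether those reads come from a deleted allele was not tested. H3f3b was lower after DAXX was returned (110 and 85.1 CPM against 293 and 388 CPM, log2 -1.79 ± 0.26, edgeR adjusted p = 0.0244) and after wild-type H3.3 was returned (202 and 144 CPM, log2 -1.84 ± 0.26, edgeR adjusted p = 0.0311). With the mutant H3f3b read 371 and 336 CPM, a smaller difference without a call (log2 -0.79 ± 0.25, edgeR adjusted p = 0.164), and mutant against wild type it was 1.05 ± 0.25 (edgeR adjusted p = 0.123). Daxx itself read 77.3 and 74.4 CPM in Daxx KO and 195 and 208 CPM in Daxx KO;DAXX (log2 1.41 ± 0.18, edgeR adjusted p = 0.0212). Reads were thus still assigned to Daxx in Daxx KO. The Daxx and H3f3b calls in the DAXX rescue were each lost without Daxx KO replicate 2 or without either Daxx KO;DAXX library (highest adjusted p 0.189 for both), and the H3f3b call in the H3.3 rescue without any 1 of its 4 libraries (adjusted p 0.101 to 0.348).

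The pluripotent state of the lines was read from 10 markers of naive and core pluripotency. Their levels, Tbx3 included, summed to 3690 to 5670 CPM per library, with Pou5f1 the most abundant at 948 to 1300 CPM. Feeder or fibroblast genes were low: Col3a1, Postn, Lum, Dcn and Twist2 never passed 3 counts, and the 8 genes together gave 4.2 to 41.8 CPM, mostly Thy1.

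Of the 64 members, 24 reached the filter for testing, which is 37.5% of them against 64.9% of all genes. No Dlx gene was tested. The tested members were 8 Tbx genes, 5 Nkx genes, 2 each of Pax, Lhx, Msx and Irx, and sine oculis genes such as Six4 and Six5. Pax4, Tbx19 and Tbx22 had 0 counts in all 10 libraries. Dlx5, Irx6, Lhx1, Nkx2-6, Nkx3-2, Nkx6-1, Pax5, Six6 and Tbx10 had at most 3 counts in every library, and 28 more passed 3 counts in at least 1 library without reaching the filter. Irx2, Lhx6, Six4, Tbx3 and Tbx4 held at least 1 CPM in every library.

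Per length, Tbx3 stood far above the rest at 64.3 ± 22.8 CPM per kb (SD, n = 10), at the 92.5 percentile of detected genes. Six4 followed at 5.8 ± 1.12, and Irx2 was at 3.02 ± 0.794 CPM per kb. The lowest Tbx3 library (35.2 CPM per kb) lay above the highest Six4 library (8.36 CPM per kb), which in turn was above the highest Irx2 library (4.21 CPM per kb). Nkx6-2 (2.16 CPM per kb) and Nkx2-9 (1.28) were lower, and Tbx4, Lhx6, Nkx1-2, Nkx6-3, Six5, Msx1, Lhx2, Tbx2 and Msx2 lay between 0.523 and 0.91 CPM per kb. Tbx3 alone made up 58.4 to 82.8% of the members' summed CPM in a library. By these levels the members are a largely silent group with a single abundant gene, and each value under about 1 CPM rests on few counts.

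**Figure D1:**
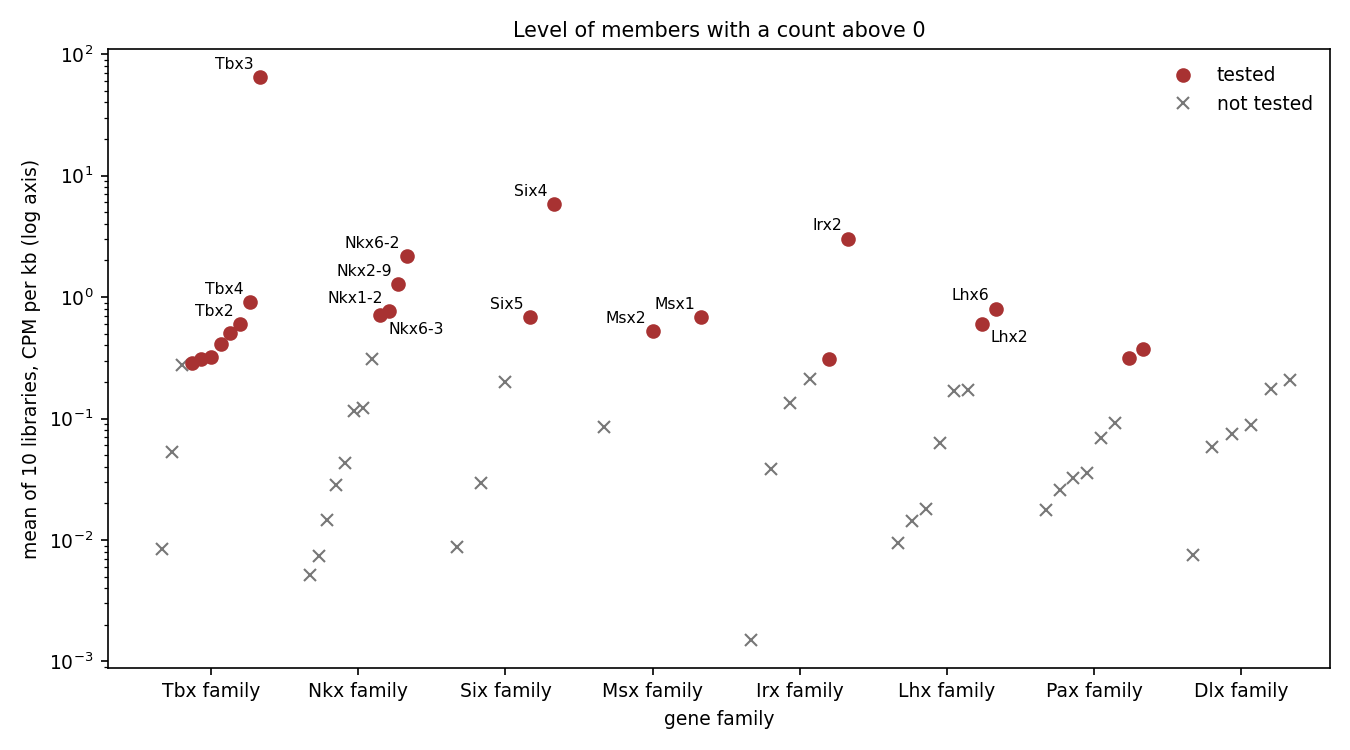
Mean level over 10 libraries of members with a count, in CPM per kb on a log axis, by gene family, where red circles were tested and grey crosses were not, and some of the highest are named. Tbx3 lies at 64.3 CPM per kb, with Six4 next at 5.8.

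Many members sit beside one another in the genome, and neighbours differed widely in level. Tbx5 lies 147.9 kb from Tbx3 on chromosome 5 and read 0.0533 CPM per kb against 64.3 for Tbx3. Nkx2-9 (1.28 CPM per kb) lies between Nkx2-1 (0.0432) and Pax9 (0.0913) on chromosome 12, at 74.5 and 78.5 kb. Tbx2 and Tbx4, 44.5 kb apart on chromosome 11, were alike at 0.596 and 0.91 CPM per kb. In the Dlx pairs both genes were low: Dlx1 and Dlx2 had 0.0744 and 0.174 CPM per kb, Dlx3 and Dlx4 0.208 and 0.0585, and Dlx6 and Dlx5 0.0888 and 0.00752. Distances are from the GRCm38 annotation.

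A single library stood apart at the low end, Daxx KO replicate 2. The 40 members that were not tested summed to 14.0 CPM there, against 4.32 CPM in Daxx KO replicate 1, 4.82 and 4.98 CPM in Daxx KO;DAXX, and 4.53 to 8.98 CPM in the H3.3 lines. It held the highest reading of 11 of the 37 untested members with a count, among them Dlx2 (1.42 CPM), Pax9 (1.47 CPM), Six2 (1.25 CPM) and Pax7 (0.906 CPM). That pattern was not particular to these families, because the same library was highest for 23% of all 4404 untested genes with a count and for 22.6% of tested genes, and untested genes of every kind summed to 1090 CPM there against 445 to 736 CPM elsewhere. Total depth did not set it apart.

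Of the lists of lineage markers, primitive endoderm, trophectoderm and fibroblast or feeder genes were also highest in Daxx KO replicate 2, and neural genes were lowest there. The 7 primitive endoderm genes, led by Gata4, summed to 23.3 CPM there against 5.37 to 14.2 CPM in the other libraries. The 7 trophectoderm genes summed to 71.5 CPM against 6.98 to 24.3 CPM, mostly Krt18 (48 CPM) and Krt7 (11.9 CPM), while the defining genes Cdx2 (0 CPM) and Elf5 (0.0566 CPM) were at or near 0. The 8 fibroblast or feeder genes summed to 41.8 CPM against 4.2 to 25.9 CPM, mostly Thy1 (36.8 CPM), and the 7 neural genes to 85.4 CPM against 112 to 240 CPM. Whether a change in the mix of cells contributes to the values of this library was not tested. In bulk RNA, fewer cells of a type and less RNA per cell cannot be told apart.

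**Figure D2:**
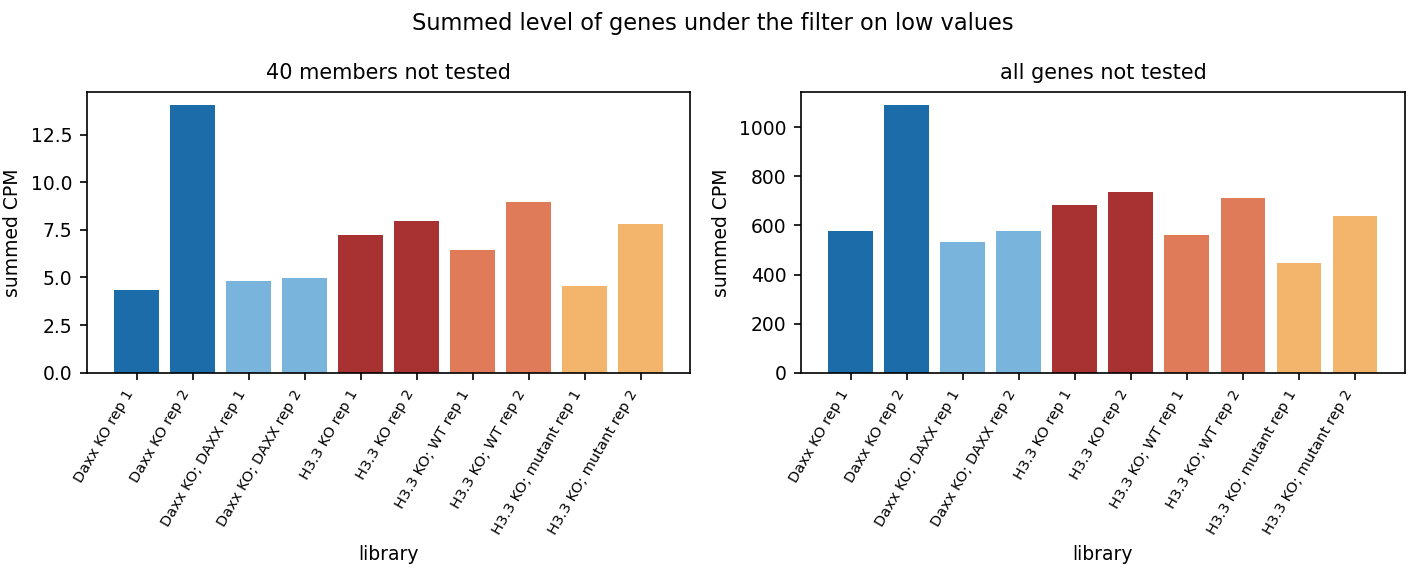
Summed CPM in each of the 10 libraries for the 40 members that were not tested (left) and for all untested genes (right), with bars from 0 and lines by colour. Daxx KO replicate 2 is highest in both, at 14.0 and 1090 CPM.

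When DAXX was returned to Daxx KO cells, edgeR's fit without a term for the replicate number called 0 of 64 members (24 tested), beside 1.08% of all genes tested, and DESeq2 and limma with either pseudocount also called 0. Over all genes edgeR called 143, DESeq2 531 and limma 240 and 189 with pseudocounts of 1 and 0.1. By direction the background was 0.288% higher and 0.795% lower. At an unadjusted p under 0.05 there were 6 members, among which Nkx1-2 and Nkx6-3 were higher (background 9.45% of genes in that direction), and Six4, Tbx2 and Tbx21 were lower (background 12.4%). Readings of the 2 groups did not overlap for 3 members that were higher with DAXX, the third being Tbx3, and for 7 that were lower, among them Msx2, Tbx18 and Tbx20. For all genes tested the shares were 24.5% higher and 23% lower.

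The T-box genes Tbx2 and Tbx21 had the lowest readings with DAXX relative to the knockout. Tbx2, a repressor in heart and limb development, read 1.76 and 4.76 CPM in Daxx KO and 0.748 and 1.02 CPM in Daxx KO;DAXX. The knockout libraries were both higher, and replicate 2 by far the highest (log2 -1.85 ± 0.55, edgeR adjusted p = 0.112). Tbx21, known as T-bet in type 1 helper T cells, read 1.4 and 2.38 CPM in Daxx KO and 0.28 and 0.34 CPM in Daxx KO;DAXX. Those groups were well apart, yet the rescued libraries rest on 6 counts each (log2 -2.57 ± 0.9, edgeR adjusted p = 0.152). Tbx20 (log2 -1.3 ± 0.59) and Tbx18 (log2 -1.05 ± 0.69) were next in size among members whose groups did not overlap, both without a call.

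Six4, which acts in muscle and sensory placodes, is abundant enough for a close estimate. Six4 read 55.3 and 43.4 CPM in Daxx KO and 29.1 and 40.7 CPM with DAXX, a log2 difference of -0.51 ± 0.2 (edgeR adjusted p = 0.183). Both knockout readings lay above both rescued ones, and the difference did not pass the test.

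The Nkx genes Nkx1-2 and Nkx6-3 had the opposite sign. Nkx1-2, a gene of the caudal neural plate and tail bud, read 2.59 and 0.34 CPM in Daxx KO and 10.2 and 6.4 CPM with DAXX (log2 2.46 ± 0.96, edgeR adjusted p = 0.183). The 2 knockout libraries differ widely from each other, and both lay below both rescued ones. Nkx6-3, known from the stomach, read 0.571 and 0.396 CPM in Daxx KO and 1.31 and 1.36 CPM with DAXX, with close replicates (log2 1.44 ± 0.44, edgeR adjusted p = 0.119). Daxx KO replicate 1 decided part of this picture: without it edgeR called Nkx1-2 (log2 4.66, adjusted p = 0.0369) and Tbx2 (log2 -2.36, adjusted p = 0.0286), and their adjusted p ran from 0.0369 to 0.629 and from 0.0286 to 0.543 over the libraries left out. The same fit without Daxx KO replicate 1 called 1074 of all genes, against 143 with all libraries. Without Daxx KO replicate 2 the log2 values were 1.62 and -1.07. In the annotation Nkx1-2 overlaps Fgfr2 on the same strand, so their reads cannot be fully told apart. Fgfr2 read 0.675 and 0.51 CPM in Daxx KO and 2.52 and 1.13 CPM with DAXX (log2 1.63 ± 0.64, edgeR adjusted p = 0.186). In the H3.3 rescues Fgfr2 was at log2 0.82 ± 0.67 with wild-type H3.3 and -1.08 ± 0.77 with the mutant, the latter opposite in sign to Nkx1-2 (edgeR adjusted p = 0.654 and 0.525).

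Returning wild-type H3.3 to H3.3 KO cells also gave no call by edgeR among the 64 members, where 0.25% of all genes tested were called (0.0379% higher and 0.212% lower). limma called 0 as well, and DESeq2 called Nkx6-3 (adjusted p = 0.0343). Over all genes edgeR called 33, DESeq2 209 and limma 55 and 36 with pseudocounts of 1 and 0.1. At an unadjusted p under 0.05 Nkx2-9 and Nkx6-3 were higher (background 5.54%) and Tbx2 and Tbx21 were lower (background 7.79%). The deposition mutant gave 0 calls by edgeR too, beside 0.788% of all genes (0.182% higher and 0.606% lower). For the mutant, DESeq2 called Nkx6-3 and Tbx2 and limma called Nkx6-3. Over all genes edgeR called 104, DESeq2 444 and limma 173 and 180 with pseudocounts of 1 and 0.1. Unadjusted p was under 0.05 for 5 members, among them Nkx1-2, Nkx6-2 and Nkx6-3, which were higher (background 6.63%), and Tbx2, which was lower (background 10.3%). H3.3 KO serves as the control of both rescues, so they are not independent and their values are set side by side.

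Nkx6-3 came nearest to a call. It read 0.702 and 0.581 CPM in H3.3 KO, 2.45 and 2.77 CPM in H3.3 KO;WT, and 2.65 and 3.06 CPM in H3.3 KO;mutant. Both rescued lines lay well above the knockout, and their replicates were close. The log2 differences from H3.3 KO were 2.04 ± 0.43 with wild-type H3.3 (edgeR adjusted p = 0.136) and 2.19 ± 0.43 with the mutant (edgeR adjusted p = 0.0555). The adjusted p ran from 0.0343 to 0.695 over the alternatives for wild-type H3.3 and from 0.0106 to 0.34 for the mutant, always with the same sign. In all 3 rescues, then, the knockout libraries had the lowest Nkx6-3 readings of their family.

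Tbx2 and Tbx21 were lower in the rescued H3.3 lines. Tbx2 read 2.98 and 5.1 CPM in H3.3 KO, 1.76 and 1.65 CPM with wild-type H3.3, and 0.647 and 1.19 CPM with the mutant. The 3 lines did not overlap. The log2 difference was -1.22 ± 0.53 for wild-type (edgeR adjusted p = 0.37) and -2.07 ± 0.56 for the mutant (edgeR adjusted p = 0.112). Tbx21 read 0.819 and 1.81 CPM in H3.3 KO, 0 and 0.361 CPM with wild-type H3.3, and 0.129 and 0.454 CPM with the mutant. Again both knockout libraries were higher, at log2 -2.77 ± 0.99 (edgeR adjusted p = 0.282) and -2.07 ± 0.93 (edgeR adjusted p = 0.301). These Tbx21 values rest on few counts. With wild-type H3.3 the log2 value was -1.84 without replicate 1 of that line, which has 0 counts, and -7.47 without replicate 2. With the mutant it was -1.41 without H3.3 KO replicate 2 and -3.16 without H3.3 KO;mutant replicate 2. For Tbx2 with wild-type H3.3 it was -0.79 without H3.3 KO replicate 2, and no library left out gave a call.

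Among the other Nkx genes, Nkx2-9, a Sonic hedgehog target of the ventral neural tube, read 0.175 and 0.387 CPM in H3.3 KO, 1.38 and 1.52 CPM with wild-type H3.3, and 0.647 and 0.681 CPM with the mutant. These 3 pairs were in separate ranges, with log2 2.38 ± 0.83 and 1.29 ± 0.87 (edgeR adjusted p = 0.272 and 0.502). Nkx1-2 read 0.351 and 0.0646 CPM in H3.3 KO, 1.51 and 0.843 CPM with wild-type H3.3, and 2.26 and 0.511 CPM with the mutant (log2 2.46 ± 1.2 and 2.73 ± 1.19, edgeR adjusted p = 0.427 and 0.289). Its knockout readings were the lowest, at 6 and 1 counts. The Nkx1-2 values ran from 1.75 (without H3.3 KO replicate 2) to 4.08 (without H3.3 KO replicate 1) with wild-type H3.3. With the mutant they ran from 1.24 (without H3.3 KO;mutant replicate 1) to 4.35 (without H3.3 KO replicate 1), and none was called. Nkx6-2, which patterns the ventral neural tube and later acts in oligodendrocytes, was at log2 0.64 ± 0.44 and 1.05 ± 0.44. Among genes whose groups did not overlap, Pax6 (log2 1.28 ± 0.63) and Tbx4 (log2 0.92 ± 0.55) also had large values with wild-type H3.3, and Irx3 (log2 -1.43 ± 1) and Msx1 (log2 -0.87 ± 0.71) with the mutant.

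Counting all members whose groups did not overlap, 8 were higher and 2 lower with wild-type H3.3 (25.9% and 29.7% of all genes tested), and 4 were higher and 7 lower with the mutant (22% and 27%). Fitted values of both signs were found among the Tbx genes in every rescue and among the Nkx genes with DAXX, while Nkx1-2, Nkx2-9, Nkx6-2 and Nkx6-3 were positive with both forms of H3.3. The plot of fitted changes shows that errors were widest for the low genes.

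**Figure D3:**
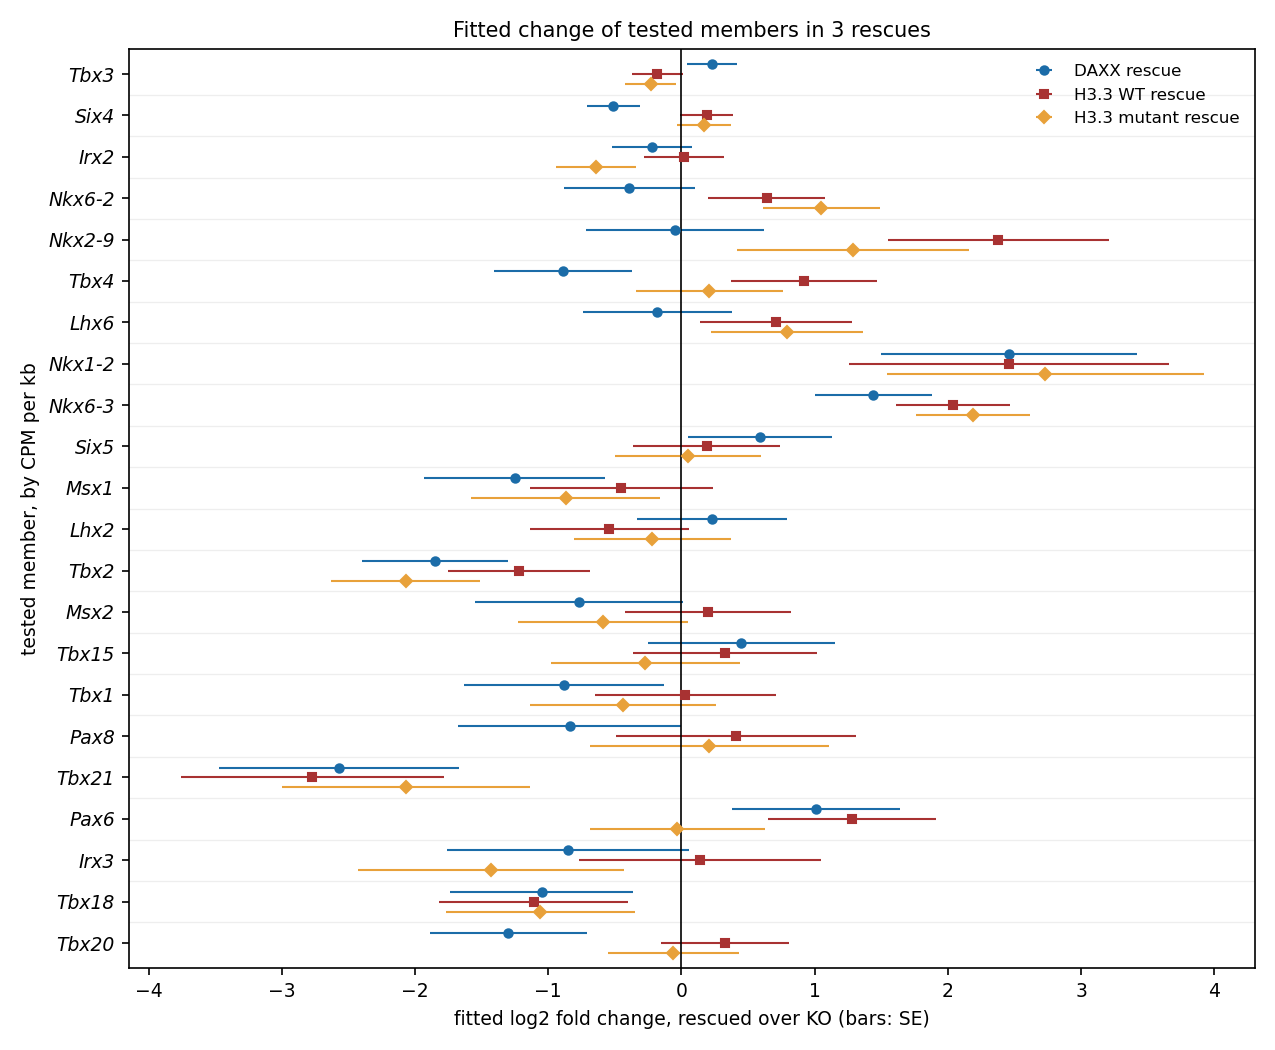
Fitted log2 fold change (rescued over KO) of tested members in the DAXX, wild-type H3.3 and mutant H3.3 rescues, with bars of 1 SE and genes running from high to low CPM per kb. Both H3.3 rescues share the H3.3 KO libraries, and no point passed the call threshold.

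**Figure D4:**
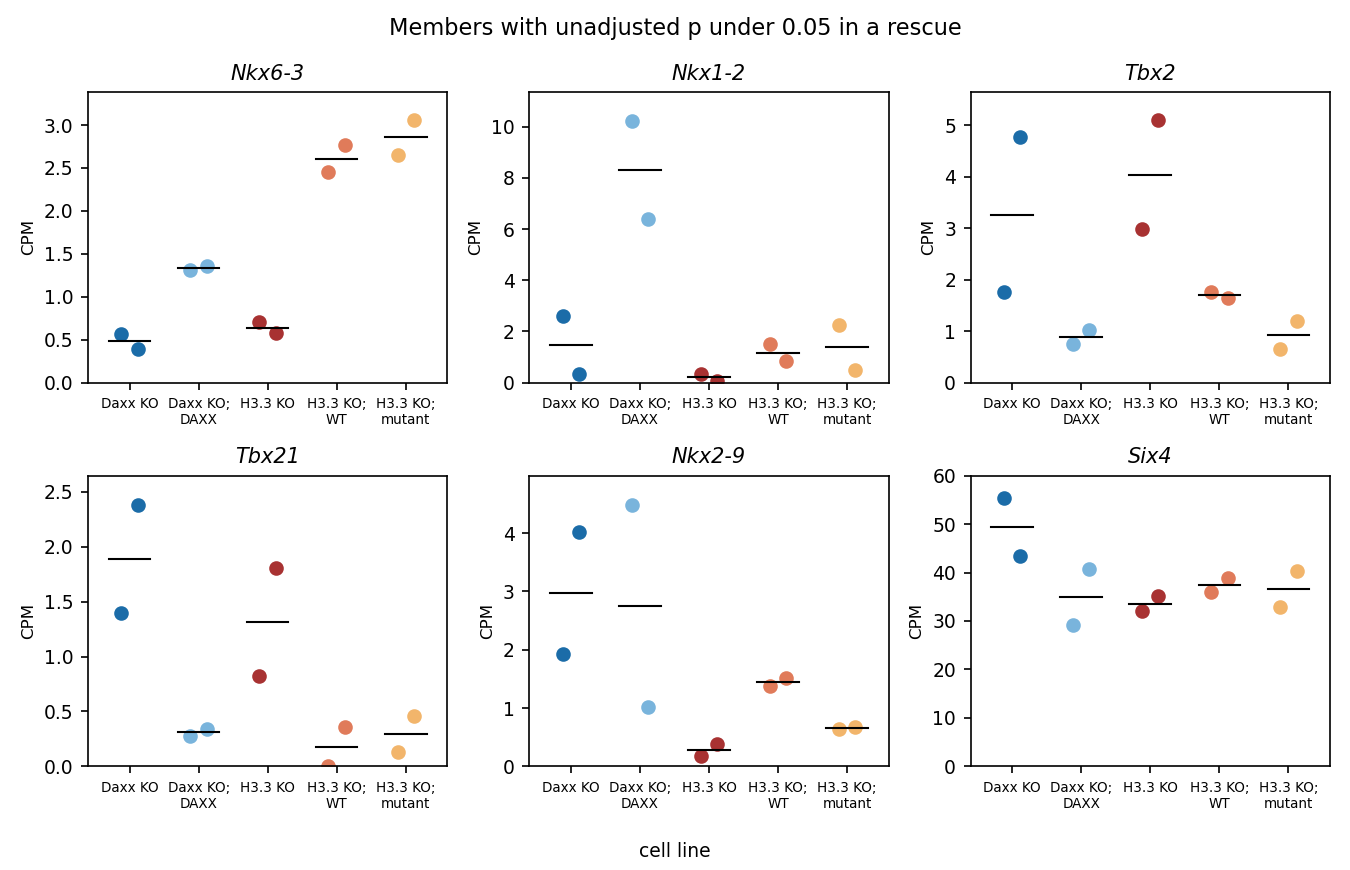
CPM in each library (points) and line means (black bars) for 6 members with an unadjusted p under 0.05 in at least 1 rescue, with linear axes from 0. Knockout libraries are lowest for Nkx6-3 and highest for Tbx2 and Tbx21 within each family of lines.

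Comparing the mutant with wild-type H3.3 directly gave 0 member calls by edgeR, beside 0.515% of all genes tested (0.25% higher and 0.265% lower). DESeq2 and limma also called 0 members. Over all genes edgeR called 68, DESeq2 323 and limma 96 and 93 with pseudocounts of 1 and 0.1. At an unadjusted p under 0.05 there were 0 members (background 12.3%, of which 5.92% higher and 6.4% lower). No member had both mutant libraries above both wild-type libraries (background 21.4%). For 11 members both mutant libraries were below both wild-type ones (background 24.2%). Among them were Irx2, Irx3, Msx2, Nkx2-9, Pax6, Tbx1, Tbx15, Tbx2, Tbx3 and Tbx4. The largest of these by fit were Irx3 (log2 -1.57 ± 1), Pax6 (log2 -1.31 ± 0.63) and Nkx2-9 (log2 -1.09 ± 0.75). Irx2 had the lowest p of the members, with 9.56 and 9.93 CPM with wild-type H3.3 and 5.95 and 6.19 CPM with the mutant. Its replicates are close and its groups are apart, but the difference of log2 -0.66 ± 0.3 did not pass (edgeR adjusted p = 0.421). For Nkx6-3 the direct difference was 0.15 ± 0.39 on the log2 scale. A missed threshold at this depth does not show that the 2 forms of H3.3 act alike.

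The response to H3.3 was then set against the response to DAXX as a difference of differences. Among all genes edgeR called 6 for wild-type H3.3 against DAXX (0.0455% of those tested) and 3 for the mutant against DAXX (0.0227%). It called 0 members in either. DESeq2 and limma were not run on these. At an unadjusted p under 0.05 were Nkx2-9, Six4 and Tbx4 in the first and Six4 in the second, with lowest adjusted p of 0.321 and 0.418. Six4 had a log2 change of -0.51 with DAXX, 0.19 with wild-type H3.3 and 0.17 with the mutant, so its response to DAXX was not shown to differ from that to H3.3.

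More genes were called between the 2 families of lines than within them, with more libraries on each side. edgeR called 7 of 64 members between the 6 H3.3-line and the 4 Daxx-line libraries, which is 29.2% of the 24 members tested, beside 12.5% of all genes tested. The share of members depends on the filter. With no filter on low values edgeR called the same 7, then of 61 members, and 1922 of all genes. The shares under the filter thus do not show that members differ between families more often than other genes. In the H3.3 lines 4 were higher (Nkx6-2, Tbx20, Msx2 and Nkx6-3, background 6.29%) and 3 were lower (Nkx1-2, Nkx2-9 and Tbx4, background 6.2%). In the Daxx lines Tbx20 and Msx2 reached at most 0.778 and 0.54 CPM, and Nkx6-2 passed 1 CPM only in Daxx KO replicate 2 (1.36 CPM). Nkx6-2, Tbx20 and Msx2 thus met the filter through the H3.3 lines, where they are high. Their count beside the background is a description only. DESeq2 called the same 7, and limma called 4 with a pseudocount of 1 (Nkx1-2, Nkx2-9, Nkx6-2 and Tbx20) and 6 with 0.1, without Nkx6-3. Over all genes edgeR called 1649, DESeq2 1695 and limma 1084 and 1613. At an unadjusted p under 0.05 there were 9 members, Tbx3 among them (37.5% of the members tested, background 49.5%), with 6 higher (24.1%) and 3 lower (25.5%). Groups did not overlap for 3 higher members (13.2%) and for 0 lower ones (9.81%). The families differ in the deleted gene, in strain and in source, and these cannot be told apart.

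Promoters of 4 of these genes are shown because they differ in direction while all hold more CpG than the median promoter. Of the other called members, Msx2 holds 16 CpG, Tbx4 holds 6, which equals the median of all promoters, and Nkx6-3 has no entry. Capitals mark CpG dinucleotides in the 250 bases before the start (RefSeq, GRCm38.p6, all on the minus strand). Nkx6-2 (chr7:139582798-139583047, 26 CpG) and Tbx20 (chr9:24774304-24774553, 22 CpG) were higher in the H3.3 lines. Nkx1-2 (chr7:132599638-132599887, 19 CpG) and Nkx2-9 (chr12:56613285-56613534, 13 CpG) were lower.
Nkx6-2: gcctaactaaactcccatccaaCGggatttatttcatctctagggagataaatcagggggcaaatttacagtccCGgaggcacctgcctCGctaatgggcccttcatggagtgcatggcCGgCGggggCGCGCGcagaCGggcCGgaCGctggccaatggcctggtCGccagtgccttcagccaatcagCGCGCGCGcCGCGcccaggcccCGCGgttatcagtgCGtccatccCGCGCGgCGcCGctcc
Tbx20: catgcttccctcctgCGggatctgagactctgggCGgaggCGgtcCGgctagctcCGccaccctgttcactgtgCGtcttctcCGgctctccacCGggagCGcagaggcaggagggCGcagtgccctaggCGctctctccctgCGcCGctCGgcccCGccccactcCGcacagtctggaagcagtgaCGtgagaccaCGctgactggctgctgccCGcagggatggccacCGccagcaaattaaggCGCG
Nkx1-2: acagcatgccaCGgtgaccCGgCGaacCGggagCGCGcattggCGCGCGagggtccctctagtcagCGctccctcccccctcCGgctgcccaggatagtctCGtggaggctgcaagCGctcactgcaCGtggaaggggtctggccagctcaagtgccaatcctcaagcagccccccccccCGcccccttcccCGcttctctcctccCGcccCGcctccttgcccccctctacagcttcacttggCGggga
Nkx2-9: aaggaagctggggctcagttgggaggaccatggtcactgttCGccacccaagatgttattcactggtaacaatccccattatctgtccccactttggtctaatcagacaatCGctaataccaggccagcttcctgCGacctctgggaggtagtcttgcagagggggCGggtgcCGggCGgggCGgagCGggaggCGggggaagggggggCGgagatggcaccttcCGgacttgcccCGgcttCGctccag

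Promoter entries were found for 46 of the 64 members. Their median was 14.5 CpG in 250 bases and 61.6% G or C, against 6 CpG and 52% over 27025 gene promoters. The 18 tested members with an entry had a median of 15.5 and the 28 untested ones 12, with ranges of 6 to 26 and 1 to 33. On both strands, the T-box element GGTGTGA was in 0 of the 46 windows (3.31% of all promoters), the NK2 element CAAGTG in 3 (11.6%), those of Nkx1-2, Nkx2-2 and Pax9, and the homeodomain palindrome TAATTA in 3 (4.9%), those of Msx2, Tbx19 and Tbx6. No motif holds another, and a match is a description only. Entries were missing, among others, for Dlx3, Dlx4, Dlx5, Dlx6, Irx1, Irx5, Irx6, Lhx5, Nkx2-6, Nkx6-3, Pax3, Pax4, Tbx15, Tbx2, Tbx3 and Tbx5.

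Nkx6-2 and Tbx20 were called members whose families did not overlap. Nkx6-2 read 0.571 and 1.36 CPM in Daxx KO, 0.701 and 0.736 CPM in Daxx KO;DAXX, 2.46 and 3.03 CPM in H3.3 KO, 3.96 and 4.39 CPM in H3.3 KO;WT, and 6.53 and 4.31 CPM in H3.3 KO;mutant. Every H3.3-line library was above every Daxx-line library (log2 2.2 ± 0.32, edgeR adjusted p = 9.2e-04). Tbx20, a heart gene, read 0.778 and 0.623 CPM in Daxx KO, 0.342 and 0.226 CPM in Daxx KO;DAXX, 1.49 and 2.84 CPM in H3.3 KO, 2.58 and 2.77 CPM in H3.3 KO;WT, and 1.42 and 2.61 CPM in H3.3 KO;mutant. These families did not overlap either (log2 2.27 ± 0.36, edgeR adjusted p = 0.00154). Nkx6-2 overlaps Inpp5a on the opposite strand in the annotation, and Inpp5a was also higher in the H3.3 lines (32.9 to 42.4 against 20.3 to 23.9 CPM), and without strand their reads cannot be told apart. Both members were called in all 10 fits that left out 1 library.

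Msx2, a BMP target of limb and skull, read 0.28 to 0.54 CPM in the 4 Daxx-line libraries and 1.52 to 2.58 CPM in 5 of the 6 H3.3-line libraries. The remaining library, H3.3 KO;mutant replicate 2, read 0.511 CPM and lay within the Daxx range (log2 2.23 ± 0.48, edgeR adjusted p = 0.00605). Nkx6-3 was called at exactly the fold threshold (log2 1 ± 0.28, edgeR adjusted p = 0.0211), and its families overlap through H3.3 KO. The difference for Nkx6-3 was 0.31 ± 0.47 between the knockouts and 0.99 ± 0.36 between the rescued lines, neither called. It was also lost in 7 of 10 fits without 1 library: Daxx KO replicate 2, either Daxx KO;DAXX library, H3.3 KO replicate 1, either H3.3 KO;WT library, or H3.3 KO;mutant replicate 2 (log2 0.86 to 1.18, adjusted p 0.0199 to 0.0683 over the 10).

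Of the genes that were lower in the H3.3 lines, Nkx2-9 read 1.92 and 4.02 CPM in Daxx KO and 4.49 and 1.02 CPM in Daxx KO;DAXX, against 0.175 to 1.52 CPM in the H3.3 lines. A single Daxx-line library, Daxx KO;DAXX replicate 2, reached into the H3.3 range (log2 -2.2 ± 0.47, edgeR adjusted p = 0.00576). Leaving out Daxx KO;DAXX replicate 1 kept the call with a smaller difference (log2 -1.45, adjusted p = 0.0319; 0.0023 to 0.0319 over the libraries left out). Fgfr2, which overlaps Nkx1-2 on the same strand, was also lower in the H3.3 lines, without a call (log2 -1.11 ± 0.43, edgeR adjusted p = 0.0685). Nkx1-2 ran from 0.34 to 10.2 CPM in the Daxx lines and from 0.0646 to 2.26 CPM in the H3.3 lines, with overlap through Daxx KO replicate 2 (log2 -2.38 ± 0.65, edgeR adjusted p = 0.0174). Its call was lost without Daxx KO replicate 1 (log2 -1.28, adjusted p = 0.166), Daxx KO;DAXX replicate 1 (log2 -2.16, adjusted p = 0.0601) or H3.3 KO replicate 2 (log2 -2.14, adjusted p = 0.0529).

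Tbx4, a hindlimb and lung gene, read 2.8 and 8.24 CPM in Daxx KO, 3.65 and 2.09 CPM in Daxx KO;DAXX, 1.58 and 1.16 CPM in H3.3 KO, 2.64 and 2.47 CPM in H3.3 KO;WT, and 1.36 and 1.7 CPM in H3.3 KO;mutant. Daxx KO replicate 2 was the highest and the families overlap in Daxx KO;DAXX (log2 -1.23 ± 0.34, edgeR adjusted p = 0.0177). The call was lost without Daxx KO replicate 2 (log2 -0.79, adjusted p = 0.0636), Daxx KO;DAXX replicate 1 (log2 -0.98, adjusted p = 0.0866), H3.3 KO replicate 2 (log2 -1.16, adjusted p = 0.0508) or H3.3 KO;WT replicate 2 (log2 -1.2, adjusted p = 0.0502). In total 4 of the 7 members were called without Daxx KO;DAXX replicate 1: Msx2, Nkx2-9, Nkx6-2 and Tbx20.

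Tbx3 itself was higher in the H3.3 lines, by less than 2-fold. It read 195 and 172 CPM in Daxx KO, 214 and 216 CPM in Daxx KO;DAXX, 345 and 525 CPM in H3.3 KO, 375 and 377 CPM in H3.3 KO;WT, and 342 and 374 CPM in H3.3 KO;mutant. No H3.3-line library was below 342 and no Daxx-line library was above 216 CPM (log2 0.91 ± 0.13, fold 1.87, edgeR adjusted p = 8.5e-04). Between the knockouts alone the difference was log2 1.15 ± 0.2 (edgeR adjusted p = 0.00485) and past 2-fold, with H3.3 KO replicate 2 far above its pair. Between rescued lines it was 0.73 ± 0.17 (edgeR adjusted p = 0.0173). The rescues left Tbx3 near its knockout level, with log2 0.23 ± 0.19 for DAXX, -0.18 ± 0.19 for wild-type H3.3 and -0.23 ± 0.19 for the mutant.

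**Figure D5:**
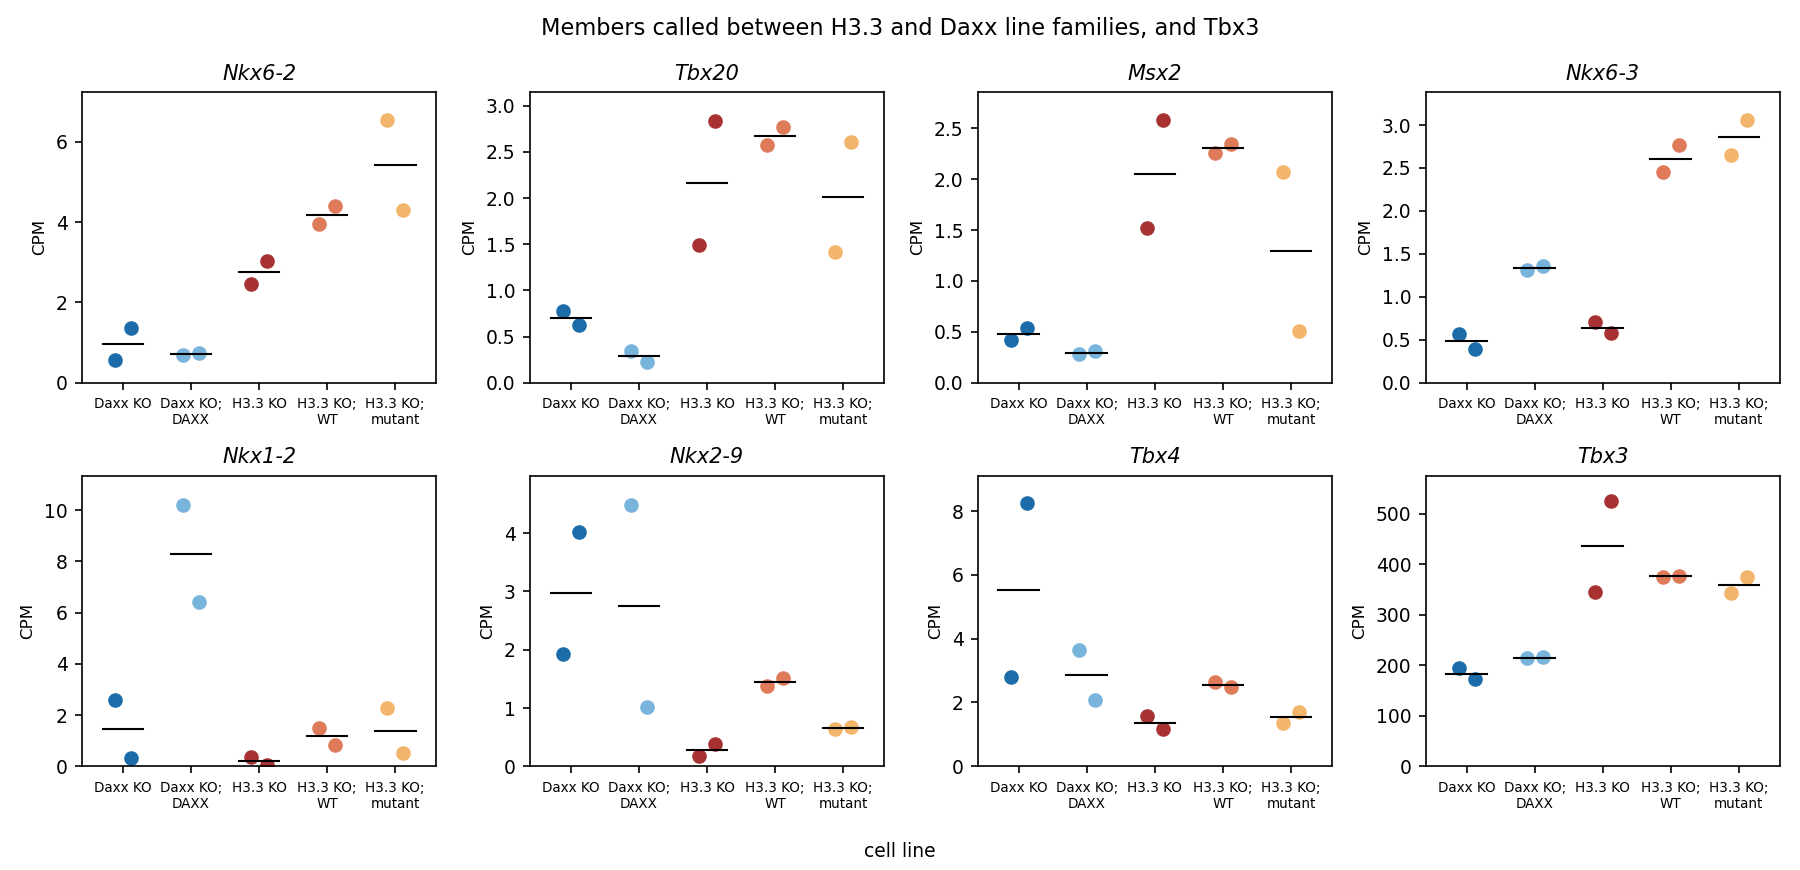
CPM in each library (points) and line means (black bars) for the 7 members called between the line families and for Tbx3, with linear axes from 0. Nkx6-2, Tbx20 and Tbx3 are the genes whose H3.3-line and Daxx-line points do not overlap.

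The family contrast was also split into knockouts and rescued lines. Between the 2 knockouts alone edgeR called Nkx2-9 (log2 -3.44 ± 0.82, adjusted p = 0.0183), Tbx4 (log2 -2.05 ± 0.54, adjusted p = 0.027) and Tbx3, beside 11.7% of all genes. Between the rescued lines alone it called Nkx6-2 (log2 2.68 ± 0.44, adjusted p = 0.00413), Tbx20 (log2 2.97 ± 0.53, adjusted p = 0.00548), Msx2 (log2 2.55 ± 0.68, adjusted p = 0.0263) and Nkx1-2 (log2 -2.74 ± 0.77, adjusted p = 0.032), beside 9.9% of all genes. This split was chosen after seeing the data. All 7 genes had the same sign on both sides of the split, and Nkx6-3 passed on neither. They had been picked by the contrast that pools these same libraries, so a shared sign was largely set by that choice and is no further support. Between the knockouts the uncalled values were -2.88 ± 1.18 for Nkx1-2, 1.97 ± 0.69 for Msx2, 1.44 ± 0.47 for Nkx6-2 and 1.53 ± 0.52 for Tbx20 (edgeR adjusted p = 0.109, 0.0674, 0.0522 and 0.06). Between the rescued lines they were -1.56 ± 0.59 for Nkx2-9 and -0.6 ± 0.45 for Tbx4 (edgeR adjusted p = 0.0828 and 0.358). A call on 1 side alone does not show that the sides differ. In the differences of differences above, wild-type H3.3 against DAXX gave 2.43 ± 1.07 for Nkx2-9 (edgeR adjusted p = 0.357) and 1.81 ± 0.75 for Tbx4 (edgeR adjusted p = 0.333).

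Genes related to the members were examined as lists. Of 62 other homeobox genes 30 were tested, led in CPM by En2 (12.9 to 23.5 CPM). Between the families Gbx1 (log2 1.48 ± 0.41) and Rax (log2 1.82 ± 0.52) were higher in the H3.3 lines, and Otx2 (log2 -3.42 ± 0.29) was lower. Otx2, a regulator of the exit from naive pluripotency and of the forebrain, read 8.03 to 22.8 CPM in the Daxx lines and 0.88 to 1.36 CPM in the H3.3 lines, far apart. Pbx3 fell with wild-type H3.3, from 10.3 and 11 to 3.27 and 3.31 CPM (log2 -1.66 ± 0.26, edgeR adjusted p = 0.0493). That call was lost without any 1 of its 4 libraries (adjusted p 0.209 to 0.527), and Pbx3 with the mutant was 7.82 and 7.38 CPM. The median log2 change of these 30 genes was -0.61 with DAXX, 0.09 with wild-type H3.3 and -0.42 with the mutant, where all genes had -0.02, 0.02 and 0.03. The 62 genes summed to 133 and 161 CPM in Daxx KO, highest in replicate 2, which stood apart above, and to 110 and 140 CPM with DAXX. The part of that library in the median was not tested. The Otx2 call held without any 1 library. Gbx1 was lost without Daxx KO;DAXX replicate 1, H3.3 KO replicate 1 or H3.3 KO;WT replicate 2 (adjusted p up to 0.0823), and Rax without Daxx KO;DAXX replicate 1 (log2 1.41, adjusted p = 0.0732). For Rax the log2 value was 2.71 without Daxx KO;DAXX replicate 2, and it was under the filter in 2 of the 10 fits without a library.

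T-box genes outside the naming rule were T, Eomes, Tbr1 and Mga, of which 3 were tested and 0 called in any comparison by edgeR. Mga, a pluripotency-stage repressor with a T-box, was the most abundant at 231 to 418 CPM. Eomes, which drives trophoblast and definitive endoderm, read 17.1 and 14.4 CPM in H3.3 KO;mutant against 7.66 and 8.52 CPM in H3.3 KO and 7.86 and 6.68 CPM in H3.3 KO;WT. The mutant pair was apart from both, at log2 1.02 ± 0.27 over H3.3 KO (edgeR adjusted p = 0.105) and 1.14 ± 0.27 over H3.3 KO;WT (edgeR adjusted p = 0.121). DESeq2 called Eomes in both. All 30 Polycomb subunits were tested, and Phf19 was the 1 call, higher in the H3.3 lines (log2 1.24 ± 0.38) and lost without 6 of 10 libraries (adjusted p up to 0.1, and log2 1.93 without Daxx KO replicate 2). Suz12, a core subunit and the most abundant of them, read 536 and 583 CPM in Daxx KO, 315 and 390 CPM with DAXX, 900 and 1010 CPM in H3.3 KO, 541 and 468 CPM with wild-type H3.3 and 496 and 522 CPM with the mutant. Each knockout pair was above its rescued pairs, under 2-fold in each (log2 -0.67 ± 0.14, -0.88 ± 0.14 and -0.85 ± 0.14; edgeR adjusted p = 0.0544, 0.0526 and 0.0347).

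Calls in the lists are given beside the share of all genes. Among the 93 tested genes of the lists that are not members, edgeR called 1 in the DAXX rescue (Dppa3), 1 with wild-type H3.3 (Pbx3), 0 with the mutant and 0 between mutant and wild type (1.08%, 0.25%, 0.788% and 0.515% of all genes). At an unadjusted p under 0.05 the counts were 17, 7, 18 and 14 (21.8%, 13.3%, 16.9% and 12.3% of all genes), by DESeq2 2, 1, 3 and 4, and by limma 2, 1, 0 and 0. Dppa3, a germline and naive-state gene, read 57.2 and 159 CPM in Daxx KO and 6.4 and 11.3 CPM with DAXX (log2 -3.6 ± 0.52, edgeR adjusted p = 0.0244), a call lost without either Daxx KO;DAXX library (adjusted p up to 0.256). The log2 value was -4.12 without Daxx KO replicate 1 and -2.78 without replicate 2.

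Between the families 12 of these 93 genes were called by edgeR, beside 12.5% of all genes, with 14 by DESeq2 and 6 and 14 by limma with pseudocounts of 1 and 0.1. Klf4 (log2 1.16 ± 0.09) and Thy1 (log2 -1.74 ± 0.25) kept their calls without any 1 library, as did Otx2. The primitive endoderm gene Pdgfra (log2 -1.49 ± 0.41) and the trophectoderm gene Ascl2 (log2 -2.01 ± 0.5) were lower in the H3.3 lines, and the mesendoderm gene Gsc (log2 1.07 ± 0.3), the neural gene Sox1 (log2 1.19 ± 0.37) and the two-cell gene Tdpoz4 (log2 2.19 ± 0.67) were higher. These 5 calls were each lost without at least 1 library: Ascl2 without Daxx KO;DAXX replicate 2 (adjusted p = 0.0531), and Pdgfra, Gsc, Sox1 and Tdpoz4 without 3, 4, 5 and 7 libraries in turn (adjusted p up to 0.0669, 0.0722, 0.115 and 0.861). Without H3.3 KO;mutant replicate 2 the log2 value of Tdpoz4 was 0.57. Without Daxx KO replicate 2, Ascl2 was at -1.39 and Pdgfra at -1.06. Summed over 6 mesendoderm genes, led by Eomes, libraries had 14.6 to 29 CPM. The 7 neural genes, mostly Tubb3, summed to 85.4 to 240 CPM with Neurog2 at or under 3 counts throughout. The 5 measured two-cell genes, led by Zscan4f, ranged from 1.56 CPM in H3.3 KO;mutant replicate 1 to 148 CPM in H3.3 KO replicate 2. Their part in the differences between members was not tested.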

How the data were processed

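The deposited values are named TPM but were read here as RSEM expected counts, because library totals differ and 61.4 to 67.6% of values, zeros included, are exact whole numbers as written. The authors made them by aligning reads with Bowtie and estimating expression with RSEM (build mm9 in the submitters' processing notes; versions not given in the sources used here). The mutant's column spells it L126I130A. Neither the kit nor the counting is stated to use strand, so a gene and its antisense partner cannot be told apart. Here expected counts were rounded and fitted over all 10 libraries in edgeR 4.0.16 (R 4.3.3) with median-of-ratios factors and 1 mean per line (common dispersion 0.0522, 5 residual degrees of freedom). SE was the log2 fold change over the root of F. CPM used library totals, and lengths were means over basic protein-coding transcripts of GENCODE M21 (GRCm38, where the authors used mm9). Genes reaching 1 CPM in 2 libraries were tested by the quasi-likelihood test. DESeq2 1.42.0, limma 3.58.1 with pseudocounts of 1 and 0.1, TMM factors, library size alone, other filters and thresholds, a replicate block, separate fits and each library left out were alternatives. The fits were tested on simulated data. Named genes were the called members, the 15 highest per kb, the 5 largest changes per direction without overlap, and called or most abundant list genes; other values were chosen after being seen. The 10 lists were other homeobox genes, other T-box genes, Polycomb subunits, pluripotency, primitive endoderm, mesendoderm, trophectoderm, neural, fibroblast or feeder, and two-cell-like genes. Members and lists were chosen with earlier results of these data known. Map2, Tfcp2l1, Usp17la, Tcstv1 and Tcstv3 were listed but are not in the table. Results for some genes are not reported here.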

Additional observations from a re-analysis of the deposited data

Results flagged for a closer look

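Among 52 series of the 4 Daxx-line or 6 H3.3-line libraries (each of the 24 tested members and 2 sums), 7 were flagged because a single library lay far from the others of its group. Chance flags about 1 in 20 groups. Daxx KO replicate 2 was the high library for the summed untested members (14.0 CPM against 4.32 to 4.98), for Tbx18 (3.11 CPM against 1.03 to 1.35) and for Pax8 (1.76 CPM against 0.519 to 0.679). H3.3 KO replicate 2 was high for Tbx3 (525 CPM against 342 to 377) and for Tbx18 (3.42 CPM against 0.702 to 0.97). Pax6 was high in Daxx KO;DAXX replicate 1 (1.64 CPM against 0.519 to 0.623), and Six5 was low in Daxx KO replicate 1 (0.986 CPM against 2.57 to 2.83). These groups pool lines of different genotype, and the cause was not tested.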

How the results depend on the processing

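The 7 member calls between families were the same in number with TMM factors, library size alone, no filter and DESeq2. They were 0 with a mean of at least 5 CPM, which leaves out all 7, 4 with limma at a pseudocount of 1, 3 between knockouts alone and 4 between rescued lines alone (both chosen after seeing the data, with 1543 and 1307 of all genes called), and 4 to 7 with a library left out. The DAXX rescue, 0 by edgeR, had 0 to 2 with a library left out. The wild-type H3.3 rescue had 1 by DESeq2 and 1 when fitted alone. Fitted alone, it had 330 of all genes called, against 33 in the fit over all 10 libraries. The mutant rescue had 1 with no filter, 2 by DESeq2, 1 by limma at either pseudocount, 1 at an adjusted p under 0.10, and 0 to 0 with a library left out. The mutant against wild type stayed at 0 in every alternative, and at 0 to 0 with a library left out. With the replicate number as a block, edgeR called 3 members in the DAXX rescue (Nkx1-2, Tbx2 and Tbx21, adjusted p 0.019, 0.0395 and 0.049), 2 in the mutant rescue (Nkx6-3 and Tbx2) and 8 between families, while calls over all genes went from 143 to 621, from 104 to 461 and from 1649 to 1812. The labels give the replicate number no meaning, while correlations of replicate differences between lines ran from -0.044 to 0.574, with 0.566 for the Daxx lines. Whether libraries with the same number share a batch was not tested, nor was the cause of the changed calls. The called members and Tbx3 between families, and Nkx6-3, Nkx1-2, Tbx2 and Tbx21 in the rescues, kept their sign in every alternative run. Leaving out a library leaves a line with 1, which is assumed to vary like the others. At these depths 40 of the 64 members did not reach the filter for testing. The smallest detectable difference is not given for any member, so a missing call does not show that a gene is unchanged.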
